A study of Arabidopsis thaliana with 13 samples.

Results

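The proteins SA and S2 to S20 of the cytosolic small ribosomal subunit were followed through a list of 60 Arabidopsis loci. The loci were chosen by annotated protein name and locus number without use of any measured value, though with earlier results of these data known. The 60 loci fall into 22 protein families, of which 8 have 2 paralogs in the list, 12 have 3 and 2 have 4. Whether the list holds every paralog in the genome was not examined, so family totals and shares cover the listed loci only. The loci were 60 of 37184 genes with a row in the dry seed counts and 60 of 37336 in the single-seed counts, and every member had at least 1 count in each. All seeds were *Arabidopsis thaliana* Col-0, the wild-type reference accession, with no mutation or transgene in any group used here. Dry after-ripened seeds of 4 biological replicates were sorted by an imaging robot into small, medium and large seeds, and each of the 12 libraries was made from about 100 seeds of 1 replicate and 1 size. Single seeds were sequenced in libraries of 32 seeds, with 3 libraries for each of small and large seeds at each of 2 times. One time was 3 days in water at 30 °C in darkness, a treatment that induces secondary dormancy (3d), and the other was 7 days of that treatment followed by 24 h in light (7d24h). No dormancy or germination score of the sequenced seeds was used here, so the groups stand for size and time only, and the length of the treatment and the 24 h of recovery cannot be told apart. RNA was read from transcript 3′ ends, so a value counts tags per transcript and is not divided by gene length.

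The small subunit binds the messenger RNA, holds the decoding centre and recruits the initiation factors, and each of its proteins is encoded in Arabidopsis by several genes. Dry seeds store messenger RNA and assembled ribosomes from maturation, and the resumption of ribosomal protein gene expression is known as one of the early steps on the way to germination. In plants, promoters of ribosomal protein genes often carry the telo box and site II elements, short motifs linked to expression in dividing and growing cells.

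Promoters of 5 members are shown because they belong to the paralogs that lay furthest apart between small and large dry seeds, in S7 and S20, and to the S6 paralog whose share of its family was higher at 7d24h than at 3d. Each window runs 5′ to 3′ on the gene's strand in TAIR10.1, with 150 bases before the annotated RefSeq start and 30 from it on, and capitals mark matches to the telo box (AAACCCTA or its reverse complement TAGGGTTT) or site II (TGGGCC or TGGGCT or the reverse complements GGCCCA and AGCCCA). The windows are chr3:16472380-16472559 on the minus strand for AT3G45030, chr3:17454701-17454880 on the minus strand for AT3G47370, chr1:18061273-18061452 on the minus strand for AT1G48830, chr5:5268271-5268450 on the plus strand for AT5G16130 and chr4:15347775-15347954 on the minus strand for AT4G31700.
AT3G45030: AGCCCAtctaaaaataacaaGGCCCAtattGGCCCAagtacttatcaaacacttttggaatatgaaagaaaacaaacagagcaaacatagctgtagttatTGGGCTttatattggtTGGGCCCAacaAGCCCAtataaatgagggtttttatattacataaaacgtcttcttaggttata
AT3G47370: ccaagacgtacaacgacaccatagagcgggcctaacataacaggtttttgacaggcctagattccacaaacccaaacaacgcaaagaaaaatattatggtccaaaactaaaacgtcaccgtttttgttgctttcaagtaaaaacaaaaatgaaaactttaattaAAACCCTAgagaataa
AT1G48830: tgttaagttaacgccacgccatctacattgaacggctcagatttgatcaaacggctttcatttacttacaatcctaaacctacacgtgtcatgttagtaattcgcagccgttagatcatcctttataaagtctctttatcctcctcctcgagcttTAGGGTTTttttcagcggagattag
AT5G16130: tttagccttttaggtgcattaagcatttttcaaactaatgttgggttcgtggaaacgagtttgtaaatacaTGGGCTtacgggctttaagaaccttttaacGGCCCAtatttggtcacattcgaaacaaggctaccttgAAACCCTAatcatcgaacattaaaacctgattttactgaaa
AT4G31700: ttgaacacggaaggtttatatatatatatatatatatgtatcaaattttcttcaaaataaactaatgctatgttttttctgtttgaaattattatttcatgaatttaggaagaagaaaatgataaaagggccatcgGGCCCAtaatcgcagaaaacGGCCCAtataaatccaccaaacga
In the longer window from 250 bases before the start to 50 after it, counted on both strands with overlapping matches kept apart, the S20 paralog AT3G45030 held 7 site II matches and no telo box, and its paralog AT3G47370 held 1 telo box. The S7 paralog AT1G48830 held 1 telo box, AT5G16130 held 1 telo box and 2 site II matches, and the S6 paralog AT4G31700 held 2 site II matches. Over all members, 29 of 60 windows (48.3%) held a telo box, against 6.22% of 27443 protein-coding genes. Site II was found in 40 of 60 (66.7%), against 21.7% of all protein-coding genes, and both motifs together in 21 of 60 (35%), against 2.20%. The 31 genes for the rest of the small subunit, S21 to S30 and RACK1, had 41.9% with a telo box and 77.4% with site II. A match is a run of letters and was not examined for binding.

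In dry seeds, the members together took a smaller share of the counts in smaller seeds. The share was 0.241%, 0.262%, 0.245% and 0.248% in the 4 small-seed libraries, 0.303%, 0.359%, 0.309% and 0.346% in medium ones, and 0.375%, 0.450%, 0.411% and 0.438% in large seeds. The 3 sizes did not overlap, and the mean was 0.249% ± 0.009 in small, 0.329% ± 0.028 in medium and 0.418% ± 0.033 in large seeds (SD, n = 4 each), a ratio of 0.59 for small over large. Each of the 22 families, summed over its paralogs, had a smaller share in small than in large seeds, with ratios between 0.435 for S12 and 0.725 for S7 and a median of 0.598. These shares are not adjusted for the make-up of the libraries, and no all-gene value was computed on this scale. Subunits of the initiation factor eIF3 had a ratio of 0.78 on it, so part of the family ratios is shared with other genes. In these pooled seeds, fewer cells that express the genes and less RNA per cell cannot be told apart.

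**Figure D1:**
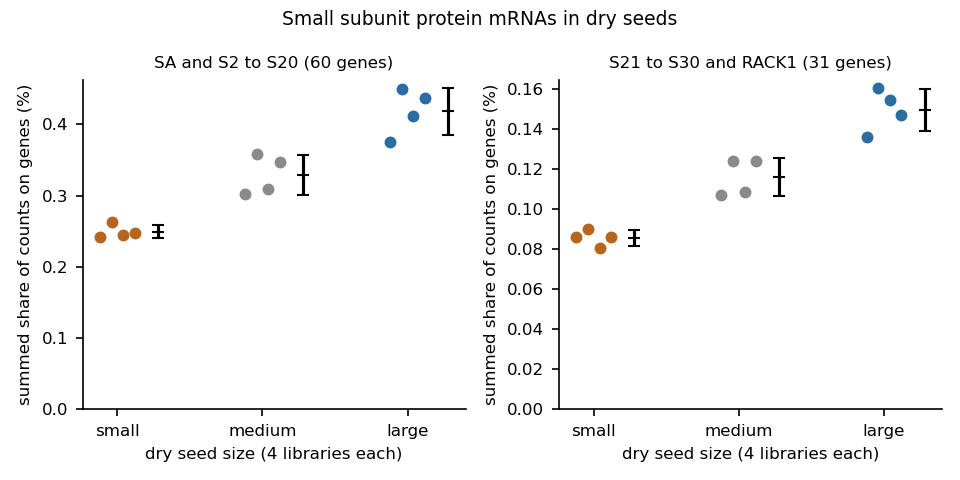
Share of all gene counts taken by the 60 members (left) and by the other 31 small-subunit genes (right) in the 12 dry seed libraries, in percent, with points for libraries and bars beside them for the group mean and SD. Small seeds lie lowest in both panels, between 0.241% and 0.262% for the members, and large seeds highest, between 0.375% and 0.450%.

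The share moved with the make-up of the libraries. Storage protein and oil body transcripts, 7 genes that mark seed identity, took 10.8% to 15.8% of counts in small, 7.58% to 11.6% in medium and 6.76% to 7.49% in large seeds, and all 7 were called higher in small than in large seeds. Endosperm markers held 2.5% to 4.2% in the 3 sizes and leaf markers at most 0.006%. The depth was 554305 to 2079317 counts per library, and the scaling factors of the trimmed mean of M-values (TMM) were 0.81 to 0.90 in small, 1.00 to 1.07 in medium and 1.1 to 1.18 in large seeds. TMM sets the bulk of genes equal, so the per-gene values below, in CPM, which are counts scaled to 1 common total of the tested genes after TMM, show a smaller difference than the shares. The part of the storage transcripts in the result was not tested.

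After that scaling, 50 of the 60 members passed the filter on low counts, among 8234 genes. The edgeR quasi-likelihood test with Benjamini-Hochberg adjustment over all 8234 genes (FDR 0.05) called 14 of the 50 lower in small than in large seeds and 1 higher, while 6.24% of all tested genes were called lower and 8.44% higher. The log2 fold change, small over large, was negative for 45 members and positive for 5, with a median of -0.39, against -0.01 over all tested genes. All 4 small libraries lay below all 4 large ones for 16 of the 50 members and above them for 1, against 7.29% and 9.08% of all tested genes. These p-values measure the spread among the 4 replicates.

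The S20 protein lies in the head of the subunit, and its paralog AT3G45030 fell furthest of the 50 tested members. It had 19.8, 14.4, 20.3 and 19.1 CPM in the small-seed libraries, 38.9, 26.1, 33.5 and 50.3 in medium, and 32.8, 44.5, 49.0 and 48.9 in large seeds. Small seeds did not overlap with either other size, while medium and large seeds did overlap. The log2 fold change was -1.22 ± 0.23 (SE) for small over large (adjusted p = 0.0002, edgeR) and -0.95 ± 0.25 for small over medium (adjusted p = 0.0193, edgeR). The other tested S20 paralogs did not pass the test. AT3G47370 had 21.3, 34.9, 28.3 and 33.0 CPM in small seeds against 27.2, 24.3, 23.5 and 43.7 in large seeds, with overlapping groups and a log2 fold change of 0.02 ± 0.24, and AT5G62300 had -0.44 (adjusted p = 0.0943, edgeR).

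Among other proteins of the head, the S12 paralog AT1G15930 had 30.5, 34.9, 49.3 and 57.3 CPM in small, 66.0, 85.0, 45.4 and 64.3 in medium, and 86.0, 96.1, 89.2 and 97.7 in large seeds. Large seeds lay above both other sizes without overlap, and the log2 fold change for small over large was -1.07 ± 0.18 (adjusted p = 3.94e-05, edgeR). RPS15 (AT1G04270), whose protein reaches toward the decoding site, had 51.8, 86.3, 84.4 and 71.2 CPM in small, 112, 128, 88.8 and 114 in medium, and 115, 146, 147 and 153 in large seeds. Small seeds lay below both other sizes, with a log2 fold change of -0.92 ± 0.15 against large (adjusted p = 2.7e-05, edgeR) and -0.58 ± 0.16 against medium seeds (adjusted p = 0.0298, edgeR). The S10 paralog AT5G41520 (-0.66) and the S16 paralog AT5G18380 (-0.46) were also called lower in small than in large seeds. The call of AT5G41520 was made in 16 of the 19 alternatives and that of AT5G18380 in 12, DESeq2 not among the 12 (adjusted p up to 0.138).

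Proteins of the body and of the messenger RNA entry followed. The S11 paralog AT3G48930, called EMB1080 after its embryo-defective mutant, had 25.9, 51.4, 40.1 and 40.0 CPM in small, 55.4, 52.8, 63.1 and 59.6 in medium, and 57.7, 84.4, 71.5 and 61.3 in large seeds. Small seeds did not reach the range of the other sizes, and the log2 fold change for small over large was -0.85 ± 0.18 (adjusted p = 0.000908, edgeR). The S9 paralog AT5G39850 had 48.8, 63.7, 23.4 and 20.8 CPM in small, 64.8, 61.0, 60.2 and 64.3 in medium, and 58.9, 56.2, 61.0 and 92.5 in large seeds. Its groups overlapped, with 2 small-seed libraries near the other sizes and 2 far below them. The call of -0.88 ± 0.22 for small over large (adjusted p = 0.00479, edgeR) became -0.58 (adjusted p = 0.1, edgeR) without the library of small seeds of replicate 3.

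The other members called lower in small than in large seeds were RPS13A (AT4G00100, -0.81), the S4 paralogs AT5G07090 (-0.78) and AT5G58420 (-0.75), the S3a paralog AT4G34670 (-0.68), the S14 paralog AT3G11510 (-0.62) and the S2 paralog AT2G41840 (-0.61). The call of AT3G11510 was lost in 8 of the 19 alternatives, DESeq2 and thinning among them, where its log2 fold change was as small as -0.40 (adjusted p up to 0.274), while the other 5 were called in all 19. S3a and S14 sit on the platform where the messenger RNA leaves, S3a in contact with the initiation factor eIF3. S2 forms part of the messenger RNA entry channel. The third S4 paralog, AT2G17360, had a log2 fold change of 0.12 (adjusted p = 0.622, edgeR). S6 is the subunit protein that S6 kinase phosphorylates downstream of TOR, and neither of its paralogs was called. AT5G10360, the more abundant S6 paralog, had 62.5, 76.0, 70.9 and 53.9 CPM in small, 47.1, 87.1, 78.9 and 74.5 in medium, and 89.4, 85.2, 84.0 and 109 in large seeds. Small and large seeds did not overlap, but the difference of -0.46 ± 0.17 did not pass the test (adjusted p = 0.0577, edgeR).

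**Figure D2:**
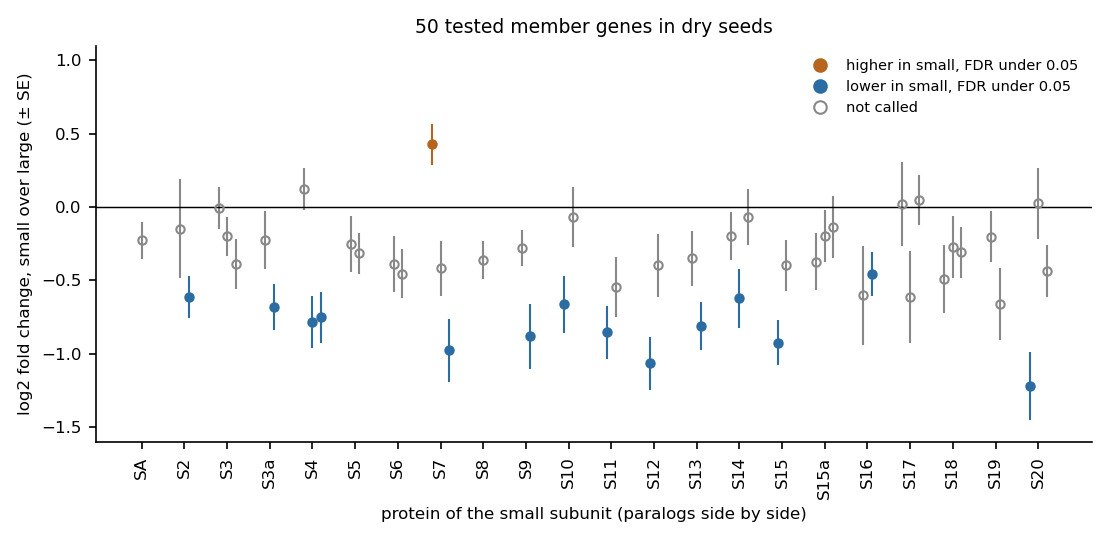
Log2 fold change, small over large dry seeds, of the 50 tested members, grouped by protein, with bars of 1 SE and called members marked. All but 5 lie below 0, from -1.22 for AT3G45030 to 0.43 for AT1G48830.

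S7 was the family whose paralogs were called in opposite directions. AT1G48830 had 102, 103, 113 and 103 CPM in small, 81.3, 67.9, 74.0 and 72.6 in medium, and 92.8, 70.9, 74.6 and 82.1 in large seeds, with small seeds above both other sizes. Its log2 fold change was 0.43 ± 0.14 for small over large (adjusted p = 0.0348, edgeR) and 0.53 ± 0.15 for small over medium (adjusted p = 0.0311, edgeR). This call was made in 10 of the 19 alternatives and was absent with DESeq2 and with upper-quartile scaling. AT5G16130 had 35.1, 20.6, 25.9 and 22.6 CPM in small, 35.4, 50.8, 37.5 and 45.6 in medium, and 39.6, 49.5, 68.9 and 43.7 in large seeds. Small seeds lay below both other sizes, and the log2 fold change for small over large was -0.98 ± 0.21 (adjusted p = 0.00121, edgeR). The third paralog, AT3G02560, had 39.6, 41.1, 38.8 and 62.5 CPM in small seeds and 48.7, 58.3, 56.9 and 73.8 in large seeds, which overlapped, with a log2 fold change of -0.42 (adjusted p = 0.129, edgeR).

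**Figure D3:**
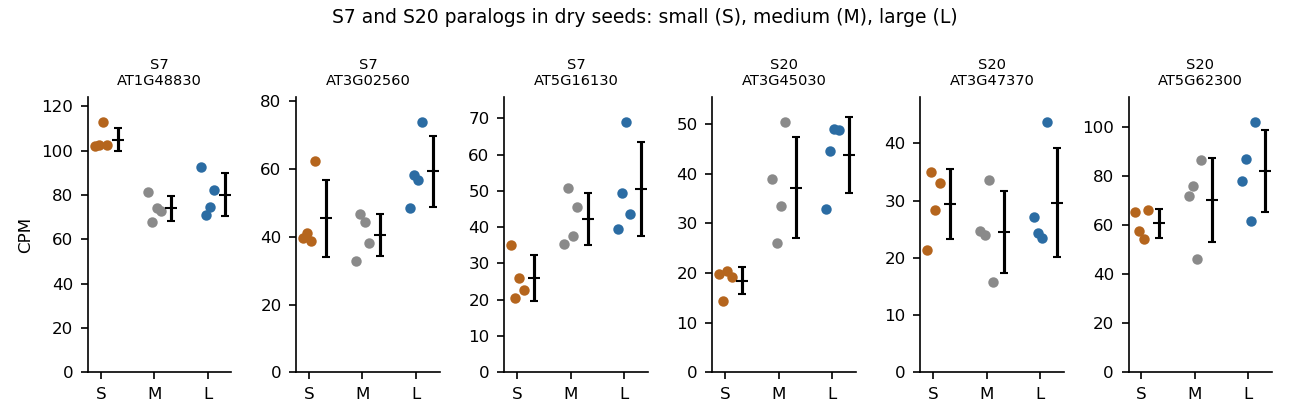
CPM of the 3 S7 paralogs (left) and the 3 S20 paralogs (right) in the 12 dry seed libraries, by small (S), medium (M) and large (L) seeds, with points for libraries, bars for the mean and SD, and a scale of its own in each panel. AT1G48830 lies highest in small seeds at 102 to 113 CPM, while AT5G16130 and AT3G45030 lie lowest there.

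Within the family, AT1G48830 held 54.6% to 63.5% of the S7 counts in small, 41.1% to 54.3% in medium and 37.2% to 51.2% in large seeds. AT5G16130 held 12% to 19.8% in small, 23.6% to 30.7% in medium and 21.9% to 34.4% in large seeds. For both paralogs the small-seed libraries did not overlap with the other sizes. For AT1G48830 the margin was narrow, 54.6% in the lowest small-seed library against 54.3% in the highest medium one. In S20, AT3G45030 held 13.5% to 19.8% in small, 20.7% to 32.9% in medium and 23.8% to 36.6% in large seeds, again with no overlap between small seeds and the rest. In S12, AT1G15930 held 53.1% to 61.1% in small, 62.2% to 69.0% in medium and 65.3% to 76.0% in large seeds. The S6 shares overlapped, and the paralog AT4G31700 held 31.5% to 48.8% in small and 32.5% to 42.8% in large seeds. Tested as log2 fold changes, the distance between the furthest paralogs of a family was 1.4 in S7, 1.25 in S20, 0.90 in S4 and 0.67 in S12. The difference between paralogs was not tested.

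Medium seeds lay between the other sizes for the members as a group, but few single members separated them. Small over medium, 4 members were called lower (AT3G45030, AT5G39850, AT1G04270 and AT4G34670) and 1 higher (AT1G48830), against 1.17% and 2.34% of all tested genes, and the median log2 fold change was -0.16. AT4G34670 had 68.6, 67.8, 62.2 and 59.1 CPM in small and 68.3, 113, 95.7 and 92.2 in medium seeds, a log2 fold change of -0.55 ± 0.16 (adjusted p = 0.0482, edgeR) with the lowest medium library inside the range of small seeds. With the replicate number as a block it was -0.51 and no longer called, which leaves 4 members. Without the library of medium seeds of replicate 4 no member was called, and without that of small seeds of replicate 3 it was 1. Single calls were made in 3 (AT4G34670) to 17 (AT3G45030) of the 19 alternatives.

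Medium over large, no member was called in either direction by edgeR, against 0.146% of tested genes higher and 0% lower. At an unadjusted p under 0.05 there were 11 members lower and 0 higher, against 2.95% of all tested genes lower and 3.9% higher, and DESeq2 called 0. The median was -0.23, with 46 negative and 4 positive values, and the smallest adjusted p was 0.395 (edgeR).

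There were 10 members too low to test in dry seeds, with 1 to 138 counts over the 12 libraries. They were AT3G04770 (SA), AT3G57490 (S2), AT5G59240 (S8), AT4G25740 (S10), AT4G30800 (S11), AT5G09500 (S15), AT2G39590 (S15a), AT3G04230 (S16), AT3G10610 (S17) and AT5G15520 (S19). In S8 the paralog AT5G20290 held at least 99.1% of the family's counts in every dry library, so that family was read from a single gene. AT4G25740 came closest to the filter, with 4.57, 8.22, 4.93 and 3.47 CPM in small and 9.06, 17.2, 12.5 and 6.24 CPM in large seeds, on 2 to 8 counts in small-seed libraries, and the groups overlapped. It was tested in 12 alternatives and called lower in 8 of them, with a log2 fold change of -1.42 to -1.15 over the 12 (adjusted p = 0.0217 to 0.143, edgeR). The standard error of the tested members ranged from 0.12 to 0.34, which sets the size of difference that could be called.

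Other translation genes were tested in the same way. Of the 31 genes for S21 to S30 and RACK1, 25 were tested and 11 were called lower in small than in large seeds and 0 higher, with a median of -0.50. Over all tested genes, 6.24% were called lower and 8.44% higher. Of the 16 tested subunits of eIF3, the factor that binds the small subunit at initiation, none was called by edgeR, 0 had an unadjusted p under 0.05 (13.7% of all tested genes were lower and 14.8% higher at that level), and the median was 0.07. As a share of counts, the scale on which the members' ratio was 0.59, eIF3 was lower in small seeds too, at 0.0809% to 0.0896% against 0.104% to 0.115% in large seeds, a ratio of 0.78 without overlap. Of 4 tested genes of TOR and S6 kinase, 2 were called higher and 0 lower, against 8.44% and 6.24% of all tested genes. As a share of counts these genes took 0.0227% to 0.0243% in small and 0.0212% to 0.0261% in large seeds. The ranges overlapped, with a ratio of 0.94 for small over large.

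In imbibed seeds no member was called between the sizes. At 3d the members took 0.508%, 0.542% and 0.581% of counts in small-seed libraries and 0.533%, 0.523% and 0.508% in large-seed libraries, which overlapped. At 7d24h they took 3.46%, 4.05% and 2.90% in small-seed and 3.79%, 3.76% and 3.94% in large-seed libraries, which overlapped too. The libraries held 2326352 to 5851052 counts. The paper describes the seeds of a condition as divided into the libraries, and its single-seed approach as using seeds from the same pool. The 3 libraries of a group are therefore parts of the same set of seeds. Their p-values, for size and for time, measure the spread between sets of 32 seeds, not between seed harvests. No repeat of the treatment is described for them.

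Among 6754 genes that passed the filters, 52 members were tested for size. At 3d, 0 members were called in either direction by edgeR, against 0.207% of tested genes higher and 0.118% lower in small seeds. At an unadjusted p under 0.05 there were 5 members higher and 1 lower, against 5.32% and 5.29% of all tested genes, and DESeq2 called 0. AT5G10360 of S6 had 762, 833 and 717 CPM in small and 834, 741 and 545 CPM in large seeds, a difference of 0.13 ± 0.14. The log2 fold changes, small over large, lay between -0.63 and 0.59 with a median of 0.06 and standard errors of 0.11 to 0.62. The S19 paralog AT3G02080, whose human counterpart is mutated in Diamond-Blackfan anaemia, had 836, 758 and 639 CPM in small and 590, 514 and 392 CPM in large seeds at 3d. Its groups did not overlap, and its difference of 0.58 ± 0.15 did not pass the test (adjusted p = 0.149, edgeR) except without library 1 of large seeds, where it did (adjusted p = 0.0447, edgeR).

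At 7d24h, 0 members were called by edgeR, against 0.785% of tested genes higher and 0.592% lower in small seeds, 0 had an unadjusted p under 0.05 (10.2% of tested genes higher and 6.4% lower) and DESeq2 called 0. The log2 fold changes ran from -0.20 to 0.12 with a median of -0.03 and standard errors of 0.10 to 0.19. AT5G10360 of S6 had 1842, 1927 and 1615 CPM in small and 1758, 1744 and 1836 CPM in large seeds, a difference of 0.01 ± 0.13. The change of the size effect with time, an interaction term, was called for 0 members by edgeR, against 0.252% of tested genes in the positive and 0.163% in the negative direction. Its median was -0.08, with 1 positive and 2 negative values at an unadjusted p under 0.05, against 5.97% and 3.48% of tested genes. The dry seeds and the single seeds were prepared and counted separately, and no test was made between their size effects.

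Between the times, every tested member rose. All 52 were called higher at 7d24h than at 3d in small seeds, against 33.1% of tested genes (32.4% were called lower), and all 52 in large seeds, against 34.1% (35.9% lower). Of the 52, 46 averaged 1 count or more per seed at 3d in each size. Of the 6754 tested genes, 4139 did so in small and 4259 in large seeds. The filter on the mean count per seed was taken over all groups together. The remaining members passed it only through 7d24h, so a higher count there was a condition of their being tested. The median log2 fold change was 1.75 in small and 1.87 in large seeds, against -0.02 in small and -0.05 in large seeds over all tested genes. As a share of all counts, the members were 6.38 times higher at 7d24h than at 3d in small seeds and 7.35 times higher in large seeds. The 2 scales differ because the tested genes themselves held 43.6% to 53.3% of counts at 7d24h and 17.5% to 20.6% at 3d, so the fitted values are relative to a growing set. Of 12078 genes with a mean of 1 count or more per seed, 6754 passed a second filter, against genes that followed the intergenic reads from seed to seed. The members' share itself ran at -0.94 to -0.47 with the intergenic share within the 7d24h libraries. The count of 52 and the all-gene shares are therefore not independent of that filter, and the members it removed are given below. Seed identity markers held 0.977% to 1.78% at 7d24h and 15.0% to 16.1% at 3d, and their part in the rise of the shares was not tested.

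Among the tested members the steepest rise was in the S11 paralog AT4G30800, which had few counts at 3d. Like AT3G10610 below, AT4G30800 passed the filter on the mean count per seed only through 7d24h. It averaged 0.16 count per seed in small and 0.10 in large seeds at 3d, against 10.4 and 11.8 at 7d24h. It had 178, 186 and 120 CPM in small seeds at 7d24h against 14.7, 5.92 and 5.59 CPM at 3d, and 191, 163 and 162 CPM in large seeds at 7d24h against 4.13, 6.92 and 6.57 CPM at 3d. The 3d values rest on 2 to 9 counts per library, and the log2 fold change was 4.15 ± 0.29 in small (adjusted p = 6.38e-09, edgeR) and 4.82 ± 0.32 in large seeds (adjusted p = 2.12e-09, edgeR). The S17 paralog AT3G10610 had 311, 375 and 231 CPM in small seeds at 7d24h against 16.3, 13.8 and 37.2 CPM at 3d, and in large seeds 306, 284 and 337 CPM against 6.19, 27.7 and 29.6 CPM. Neither gene's times overlapped in either size, and AT3G10610 rose by 3.77 ± 0.31 in small (adjusted p = 3.45e-08, edgeR) and 3.81 ± 0.31 in large seeds (adjusted p = 2.41e-08, edgeR).

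S6 showed the rise in an abundant gene. RPS6 (AT4G31700) had 1952, 2397 and 1474 CPM in small seeds at 7d24h against 247, 286 and 266 CPM at 3d, and in large seeds 2182, 2005 and 2404 CPM against 250, 265 and 228 CPM. The log2 fold change was 2.87 ± 0.16 in small (adjusted p = 6.5e-10, edgeR) and 3.15 ± 0.16 in large seeds (adjusted p = 2.3e-10, edgeR), and the times lay far apart. Its paralog AT5G10360 had 1842, 1927 and 1615 CPM in small seeds at 7d24h against 762, 833 and 717 CPM at 3d, and in large seeds 1758, 1744 and 1836 CPM against 834, 741 and 545 CPM. That is a rise of 1.22 ± 0.13 in small (adjusted p = 9.4e-07, edgeR) and 1.34 ± 0.13 in large seeds (adjusted p = 2.81e-07, edgeR). The difference between the paralogs' rises was not tested.

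In S19, AT5G61170 had 1355, 1703 and 1100 CPM in small seeds at 7d24h against 204, 170 and 223 CPM at 3d, and in large seeds 1505, 1383 and 1557 CPM against 165, 235 and 213 CPM. It rose by 2.8 ± 0.17 in small (adjusted p = 1.18e-09, edgeR) and 2.85 ± 0.17 in large seeds (adjusted p = 6.71e-10, edgeR). Its paralog AT5G15520 had 169, 205 and 114 CPM in small seeds at 7d24h against 21.2, 7.90 and 37.2 CPM at 3d, and in large seeds 173, 164 and 179 CPM against 37.1, 15.6 and 27.9 CPM. The times did not overlap, and the rise was 2.87 ± 0.32 in small (adjusted p = 1.29e-06, edgeR) and 2.7 ± 0.31 in large seeds (adjusted p = 1.24e-06, edgeR). AT5G15520 too passed the filter on the mean count per seed only through 7d24h. The S15a paralog AT5G59850, a protein of the body, had 1139, 1463 and 1020 CPM in small seeds at 7d24h against 171, 166 and 164 CPM at 3d, and in large seeds 1260, 1270 and 1327 CPM against 202, 194 and 156 CPM. It rose by 2.85 ± 0.14 in small (adjusted p = 3.19e-10, edgeR) and 2.81 ± 0.14 in large seeds (adjusted p = 2.3e-10, edgeR).

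The smallest rises were found for AT5G35530 of S3, a protein of the messenger RNA entry channel, at 0.30 in small (adjusted p = 0.0269, edgeR) and 0.34 in large seeds (adjusted p = 0.0137, edgeR). The call was lost in 4 of the 19 alternatives in small and 3 in large seeds. AT5G18380 of S16 rose by 0.48 in small and 0.55 in large seeds, AT4G34670 of S3a by 0.78 in small and 0.80 in large seeds, and the S7 paralog AT1G48830 by 0.85 in small and 0.73 in large seeds. The AT3G04230 paralog of S16 rose by 0.76 in small and 0.62 in large seeds and was not called in either when seeds were thinned to 20000 counts.

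**Figure D4:**
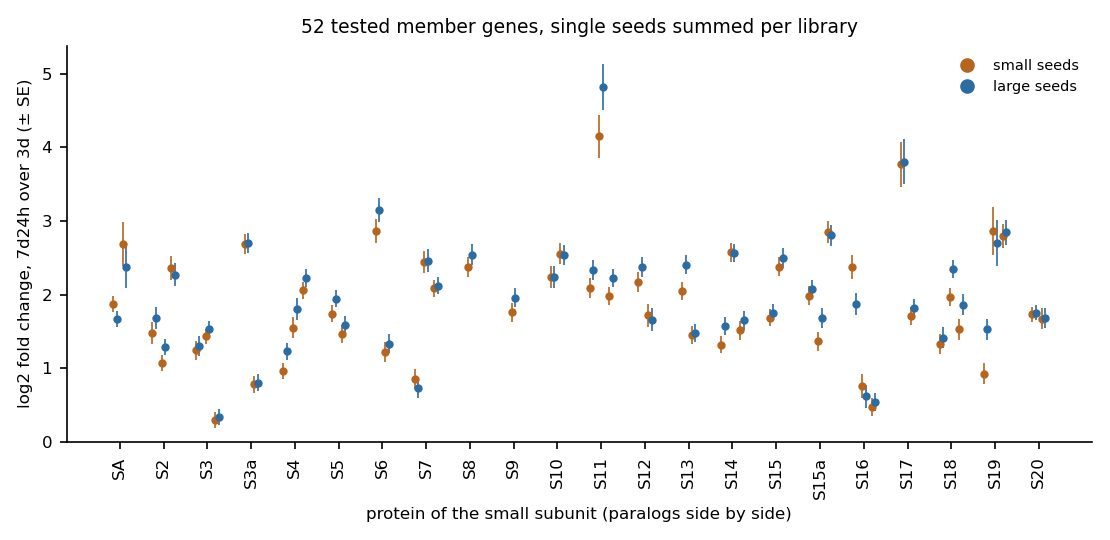
Log2 fold change, 7d24h over 3d, of the 52 tested members in small and in large seeds, grouped by protein, with bars of 1 SE. Every value is above 0, from 0.30 for AT5G35530 in small seeds to 4.82 for AT4G30800 in large seeds.

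Paralog make-up changed with time in several families. Those named here are examples, and how many of all families changed was not counted. In S11 it changed little for AT3G48930, which held 55.6% to 57.6% in small seeds at 7d24h and 55.1% to 59.5% at 3d. In S6, AT4G31700 held 47.7% to 55.4% of the family's counts in small and 53.5% to 56.7% in large seeds at 7d24h, against 24.4% to 27.1% in small and 23.0% to 29.5% in large seeds at 3d. In S3a, AT3G04840 held 36.5% to 42.4% in small and 41.3% to 43.5% in large seeds at 7d24h, against 14% to 15.2% in small and 15.3% to 17.4% in large seeds at 3d. In S19, AT5G61170 held 44.5% to 48.1% in small and 47.7% to 48.2% in large seeds at 7d24h, against 18.1% to 24.8% in small and 20.8% to 33.7% in large seeds at 3d.

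In S7, AT1G48830 held 19.6% to 20.1% in small and 17.8% to 18.8% in large seeds at 7d24h, against 36.3% to 41.2% in small and 35.5% to 42.2% in large seeds at 3d. In S3, AT5G35530 held 27.3% to 31% in small and 25.9% to 27.9% in large seeds at 7d24h, against 45.2% to 46.5% in small and 42.5% to 45.6% in large seeds at 3d. For the named paralogs of S6, S3a, S19, S7 and S3 the times did not overlap in either size. In S20 the paralogs differed. AT3G45030 held 37.2% to 39.7% in small and 36.5% to 38.2% in large seeds at 7d24h, against 38.9% to 42.0% in small and 37.0% to 41.2% in large seeds at 3d, and the times overlapped. Its paralog AT5G62300 held 33.0% to 34.0% in small and 33.4% to 34.1% in large seeds at 7d24h. At 3d it held 23.3% to 31.3% in small and 26.2% to 28.3% in large seeds, without overlap between the times.

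As whole families, the share of counts rose 3.21 times in S16 to 10.6 times in S8 in small seeds, and 3.50 to 12.7 times in the same families in large seeds. The median over the 22 families was 7.15 in small and 7.79 in large seeds. The 28 tested genes of S21 to S30 and RACK1 all rose too, with medians of 1.95 in small and 2.02 in large seeds. Of 13 tested eIF3 subunits, 7 were called higher and 3 lower in small seeds, against 33.1% and 32.4% of all tested genes. In large seeds 8 were called higher and 3 lower, against 34.1% and 35.9%.

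There were 8 members that were not tested in single seeds. AT5G59240 (S8), AT5G09500 (S15) and AT2G39590 (S15a) averaged fewer than 1 count per seed. AT5G59240 had 0 counts in all 6 libraries at 3d and 16 to 38 per library at 7d24h, at least 16.1-fold higher as a share of counts in small and 18-fold in large seeds, with the 3d level set at 3 counts over the group, and it was called higher in both sizes when genes down to 0.1 count per seed were tested. It could pass that lower filter only through its counts at 7d24h. AT5G39850 (S9), AT4G25740 (S10), AT2G04390 and AT2G05220 (both S17) and AT5G62300 (S20) were removed because their share correlated with the share of intergenic reads above 0.3 in at least 1 condition. With that filter left out, which also changes the scaling, 57 of 57 were called higher in both sizes, AT5G39850 among them. The share of all genes called higher in that setting is not given here, so the count has no background beside it. AT5G39850 had 855, 695 and 758 CPM in small seeds at 7d24h against 629, 565 and 512 CPM at 3d, and in large seeds 661, 709 and 614 CPM against 745, 716 and 735 CPM. On this scale the large seeds had less at 7d24h than at 3d, without overlap, while the small seeds had more.

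Seed-to-seed spread could be read from 384 single seeds of 3962 to 463684 counts, of which 6 had fewer than 20000. At 7d24h the members took 1.75% to 6.68% of a seed's counts in small seeds, with a median of 2.34% and a middle range between quartiles of 2.19% to 3.30%. In large seeds at 7d24h the range was 1.79% to 6.84%, the median 2.56% and the quartiles 2.31% and 4.32%. At 3d the range was 0.329% to 0.990% in small and 0.321% to 0.817% in large seeds, the lowest value of all coming from a large seed with 15 member counts among 4676. The upper end was drawn out at 7d24h. Above 4%, a line set after the values were seen, lay 20 of 96 small seeds (3 to 11 of 32 per library) and 29 of 96 large seeds (8 to 12 per library). No seed at 7d24h, 0 of 96 small and 0 of 96 large, was at or below the highest 3d seed.

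**Figure D5:**
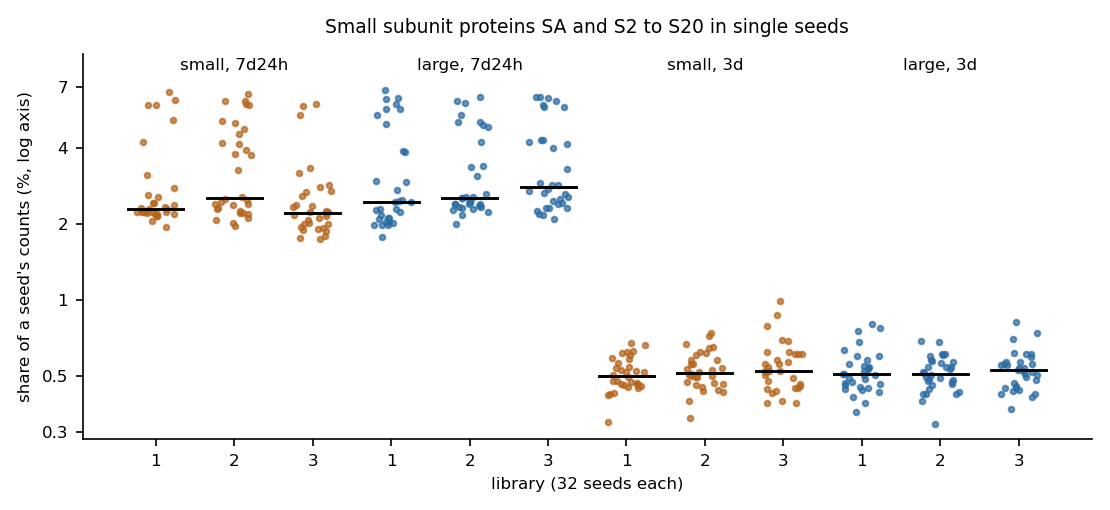
Share of a seed's counts taken by the 60 members, in percent on a log axis, for each single seed by library, with the library median. Seeds at 7d24h run from 1.75% to 6.84% and all lie above the highest 3d seed at 0.990%.

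The spread beyond counting noise was wider at 7d24h. As a coefficient of variation within a library, after the Poisson variance was taken off, it had a median over the 3 libraries of 43.0% in small and 42.3% in large seeds at 7d24h, and of 16.5% in small and 17.2% in large seeds at 3d. Single libraries ran from 41.9% to 49.9% at 7d24h and from 14.1% to 24.1% at 3d, with no overlap between the times and overlap between the sizes. Whether reads were collapsed to molecules is not given, so this spread can hold amplification noise as well. Thinning every seed to 20000 counts gave 44.1% in small and 42.0% in large seeds at 7d24h, and 15.1% in small and 19.1% in large seeds at 3d.

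Single members had a higher median spread than all tested genes at 7d24h, where genes were not matched for level. Over the 52 members that averaged 1 count or more in a seed, the median spread of a gene was 47.4% in small and 46.7% in large seeds, against 25.4% over 6706 tested genes in small and 25.1% over 6662 in large seeds. At 3d the medians over 46 members were 20.4% in small and 20.5% in large seeds, against 16.9% over all tested genes in small and 17.9% in large seeds. AT4G30800 had the widest spread at 7d24h, 145% in small and 116% in large seeds, and RPS6 (AT4G31700) had 83.4% in small and 73.2% in large seeds. AT5G35530 had the narrowest, 8.98% in small and 12.4% in large seeds, and AT3G45030 of S20 had 22.2% in small and 21.5% in large seeds. The paralog pair of S6 differed here too, with 46.0% in small and 47.2% in large seeds for AT5G10360.

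Members moved together from seed to seed at 7d24h. The Pearson correlation of a member's share with that of all other members, on seeds thinned to 20000 counts, had a median of 0.81 over 58 members and 95 small seeds, and of 0.80 over 58 members and 96 large seeds. It was above 0.5 for 54 of the 58 in each size. The same correlation was not computed for other genes, so it is not shown to be particular to the members. AT5G20290 of S8 had 0.95 in both sizes, AT4G31700 had 0.93 in small and 0.95 in large seeds, and AT5G35530 had 0.43 in small and 0.32 in large seeds. AT5G39850 of S9 had the lowest value in each size, -0.08 in small and -0.41 in large seeds. This gene was removed from the tests because its share ran with the share of intergenic reads. The part of that relation in its values was not tested. Among the 76 small and 67 large seeds at or below 4%, the median was 0.48 in small and 0.39 in large seeds. A cut on the summed share narrows its range and by itself lowers such correlations. The part of the seeds with high shares was therefore not tested. At 3d the medians were 0.21 in small and 0.19 in large seeds at low counts per seed, which are too few to read a relation from. These are descriptions of seeds that share a library, and a share can rise only where another falls.

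The summed members followed the rest of the small subunit, with correlations of 0.98 to 0.99 within the 6 libraries at 7d24h and of 0.51 to 0.89 at 3d. Among the seeds at or below 4% it was 0.92 in small and 0.90 in large seeds. With the seed identity markers the correlations were -0.93 to -0.76 at 7d24h and -0.74 to -0.30 at 3d. With the logarithm of a seed's depth they were 0.40 to 0.66 at 7d24h, and with its share of intergenic reads -0.94 to -0.47, so depth and read quality moved with the members' share and their part in it was not tested.

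Members with and without a telo box had close medians. In dry seeds the median log2 fold change, small over large, was -0.36 for the 25 tested members with a telo box and -0.39 for the 25 without. At 7d24h over 3d in small seeds it was 1.82 for 26 members with a telo box and 1.74 for 26 without. For members with both motifs against those with neither, the median at 7d24h over 3d was 1.98 (20 members) against 2.37 (11 members) in small seeds and 2.17 against 1.94 in large seeds, an order that differed between the sizes. AT4G30800, with the steepest rise among tested members, and AT5G62300 held neither motif in the window. As the 3′ tags have to tell paralogs apart, the last 300 transcript bases were compared in windows of 55 bases, and 56 of the 60 members shared no window with another gene. The exceptions were AT2G32060 of S12 (15.2% of windows, shared with AT2G32050), AT5G18380 of S16 (6.31%, shared with AT2G09990), and AT2G05220 and AT5G04800 of S17, which shared 1 window, so the values of these genes are less certain.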

How the data were processed

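Seeds were read by 3′ RNA sequencing. The authors deposited raw counts per gene for 12 dry seed libraries and for 384 single seeds. The processing notes of the submitters name STAR 2.7.8a and TAIR10. The read primers carry molecular identifiers, but whether the counts were collapsed by them is not given in the sources used here. Size and replicate number of the dry libraries came from the column names. Rows for reads with no feature (9.76% of single-seed reads) or an ambiguous one (0.256%) were left out.

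Counts were tested with edgeR 4.0.16 (R 4.3.3, limma 3.58.1), quasi-likelihood F test, TMM, Benjamini-Hochberg over all genes tested, FDR 0.05, two-sided. Dry libraries were fitted together after filterByExpr. Single seeds were summed per library. Genes had to average 1 count or more in a seed, over the seeds of all groups together. They also had to have a Pearson correlation of their share with the intergenic share of at most 0.3 in every condition. The study's wording of that filter is on read numbers. DESeq2 1.42.0 was an alternative, as were other scaling, filters, thinning, a block and leaving out each library. The replicate numbers were taken to pair the dry libraries, since the labels describe seeds of 4 biological replicates sorted by size. Deviations of libraries with the same number had a mean correlation of 0.0161, against -0.0053 for other numbers, and 2 of 12 pairs were above 0.1. Fits were tested on simulated data.

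Members and gene lists were chosen with earlier results of these data known. Values per sample were given, in each comparison, for up to 6 called members of the largest change in each direction with at least 10 CPM on average, for the most abundant S6 paralog and for families with calls in opposite directions. Other members are given by range, count or single value. AT3G47370, AT3G02560, AT3G02080, AT4G25740, AT5G59240 and AT5G39850 in single seeds were added after their values were seen. Promoters were read from the TAIR10.1 genome with RefSeq annotation, to which all 60 members were matched. Intervals of counts cover counting error only and were not used. Seeds were summarised with Python 3.11.15, numpy 2.4.6 and pandas 2.3.3.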

Additional observations from a re-analysis of the deposited data

Results flagged for a closer look

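In groups of 4 dry seed libraries, 4 values lay far from the other 3, among 36 groups examined, where chance gives about 1 in 20. AT1G48830 (S7) had 112.8 CPM in small seeds of replicate 3, against 102 to 103 in the others. Without that library its call for small over large was lost, as it also was without some other single libraries. AT1G04270 (S15) had 115 CPM in large seeds of replicate 1, against 146 to 153 in the others. AT5G39850 (S9) had 92.5 CPM in large seeds of replicate 4, against 56.2 to 61.0 in the others. AT3G02560 (S7) had 62.5 CPM in small seeds of replicate 4, against 38.8 to 41.1 in the others, and without that library it was called lower in small than in large seeds (log2 fold change -0.58, adjusted p = 0.044, edgeR).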

How the results depend on the processing

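Small over large in dry seeds, 15 members were called (1 higher, 14 lower). Alternatives gave 12 with DESeq2 and with no filter on low counts, 20 with upper-quartile factors, 14 thinned, 17 with only these sizes and 15 with the replicate number as replicate block (1 higher, 14 lower). Leaving out single libraries gave 11 to 18. Of the 15, 10 were called in all 19 alternatives. Upper-quartile factors moved the all-gene median to -0.09 and the calls over all genes to 503 higher and 703 lower, against 695 and 514 with TMM. Small over medium, 5 members became 3 with DESeq2, 3 with no filter, 1 with only these sizes, 2 thinned, 4 with the block and 0 to 4 leaving out single libraries, and the cause was not tested. Medium over large stayed at 0 in all alternatives, as did size at 7d24h and the interaction. Size at 3d gave 0 to 1. The time comparisons gave 51 to 52 leaving out single libraries, 52 and 52 with the library number as block, 57 and 57 with no intergenic filter (fewer genes removed), and 51 and 50 with thinned seeds. The shares of all genes called in these alternatives of the time comparisons are not given here. In the single seeds the library number is only a number (mean correlation 0.0586 against -0.0293, 5 of 18 pairs above 0.1). Over 33 results for single genes and 627 alternatives, 571 kept direction and call, 51 lost the call, 5 gained it and 0 changed sign.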
